A study of Saccharomyces cerevisiae with 57 samples.

Results

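The promoters described here belong to 54 nuclear genes for proteins of the yeast mitochondrial ribosome. They were taken as every gene of the sacCer3 annotation with a symbol of MRPL, MRPS or RSM followed by a digit, and each promoter was the 500 bp upstream of the start codon. Of 5981 such promoters of nuclear protein-coding genes, 34 belonged to MRPL genes, which encode proteins of the large subunit, and 20 to MRPS and RSM genes, which are named for the small subunit. No pair of the 54 windows overlapped. A neighbouring gene was transcribed away from the member in 31 of the 54 and in the same direction in 23, and in 21 of the divergent pairs the neighbour also began inside the window, so that cleavage there could not be assigned to the member alone. In 41 windows some of the 500 bp lay inside an annotated gene, and over the 54 the part outside genes was at least 164 bp, with a median of 303.5 bp.

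The study mapped binding of the general regulatory factors Abf1, Rap1 and Reb1 by ChEC-seq, in which a protein fused to micrococcal nuclease (MNase) cuts DNA near where it sits once calcium is added to permeabilized cells. All strains were Saccharomyces cerevisiae of the W1588-4C background, which is a RAD5+ congenic of W303-1A, grown in YPD at 30 °C. The TF–MNase strains carried ABF1-3FLAG-MNase-kanMX6, RAP1-3FLAG-MNase-kanMX6 or REB1-3FLAG-MNase-kanMX6, fusions at the C terminus of the endogenous gene, and the free MNase control carried ura3::P_REB1-3FLAG-MNase-NLS-URA3, a nuclear MNase driven by the REB1 promoter. The set held 15 Abf1, 13 Rap1, 17 Reb1 and 11 free MNase ChEC-seq libraries and 1 Abf1 X-ChIP-seq library. Digestion ran for 10, 20, 30, 40 and 50 s and for 1, 2.5, 5, 10 and 20 m, with a library without calcium for each strain. Only the 3 TFs at 30 s had replicates (n = 3 each), and free MNase had 1 library at 30 s. Short-linker Abf1 and Reb1 fusions and an N-terminal Reb1 fusion, labelled pRS413-P_REB1-MNASE-3FLAG-REB1 and thus expressed from a plasmid, had 1 library each at 30 s and at 5 m. The labels give the short-linker libraries the genotypes above, whereas the strain list of the study names them ABF1-SL-MNase-kanMX6 and REB1-SL-MNase-kanMX6, and in that list the N-terminal strain carries reb1Δ::kanMX6, so that the plasmid was its source of Reb1. Nothing in the labels says that the replicates came from separate cultures, so the p-values below measure the spread between these libraries.

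Nearly all proteins of the mitochondrial ribosome are encoded in the nucleus, made in the cytosol and imported into the organelle, where the ribosome translates a small set of membrane proteins of the respiratory chain. Their genes are scattered over the chromosomes and must be expressed alongside the mitochondrial ribosomal RNAs. Abf1, Rap1 and Reb1 are abundant DNA-binding proteins that sit in promoters and help to keep them free of nucleosomes, and Rap1 is best known at the genes of the cytosolic ribosome.

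Sequences of 81 bp around the position of most cleavage are shown for the members with the highest level among those that a single TF cut most, since they let the cleavage be read against the DNA. They were read from the RefSeq R64 assembly of sacCer3, 5′ to 3′ on the strand of the gene. Capitals mark a match, on either strand, to the pattern of the TF named on the line, which was the Abf1 consensus, the Rap1 pattern of CACCC and CA separated by 3 bases, or TTACCC for Reb1. The MRPS18, MRPL28 and MRPL27 sequences hold the Abf1 consensus, MRPL15 holds the Rap1 pattern, and MRPS12 and MRPL10 hold TTACCC. No capitals stand in MRPL49 and RSM19, which says only that the pattern of that TF was not found within the 81 bp.
MRPS18, cut by Abf1–MNase, chrXIV:57978-58058, plus strand: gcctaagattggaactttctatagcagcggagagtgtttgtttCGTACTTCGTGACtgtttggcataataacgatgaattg
MRPL28, cut by Abf1–MNase, chrIV:1385838-1385918, plus strand: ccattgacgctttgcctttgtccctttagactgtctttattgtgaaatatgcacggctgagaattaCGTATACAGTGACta
MRPL27, cut by Abf1–MNase, chrII:768062-768142, plus strand: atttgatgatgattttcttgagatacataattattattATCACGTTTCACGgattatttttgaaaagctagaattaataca
MRPL49, cut by Rap1–MNase, chrX:246301-246381, plus strand: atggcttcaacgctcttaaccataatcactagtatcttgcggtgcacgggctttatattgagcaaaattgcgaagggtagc
MRPL15, cut by Rap1–MNase, chrXII:759105-759185, plus strand: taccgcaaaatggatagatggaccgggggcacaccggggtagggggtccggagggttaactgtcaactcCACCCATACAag
RSM19, cut by Reb1–MNase, chrXIV:695473-695553, minus strand: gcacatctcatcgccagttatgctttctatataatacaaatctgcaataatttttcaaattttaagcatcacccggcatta
MRPS12, cut by Reb1–MNase, chrXIV:694919-694999, minus strand: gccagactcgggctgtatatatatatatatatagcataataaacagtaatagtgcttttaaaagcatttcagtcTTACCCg
MRPL10, cut by Reb1–MNase, chrXIV:104160-104240, minus strand: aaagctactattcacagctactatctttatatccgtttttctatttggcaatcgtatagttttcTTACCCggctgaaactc

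Cleavage was measured as the number of fragment ends in the 500 bp per 1000000 ends on the nuclear chromosomes outside the rDNA, called the level below. The 9 TF libraries at 30 s held 2745981 to 5165350 fragments and the free MNase library at 30 s held 3252175, and the lowest number of ends in any member window of the 9 was 22. Fragments with a distinct start and end made up 43.2% to 76.2% of the fragments in the 9 libraries. Mitochondrial DNA took 16.1% of the ends in free MNase at 30 s and 0.272% to 1.74% in the 9 TF libraries, and rDNA took 6.70% in the former and 7.12% to 29.5% in the latter. The free MNase library of 20 s, with 47677 fragments, was the shallowest of the 57. A promoter was called different between strains at 30 s when limma gave a Benjamini-Hochberg adjusted p under 0.05 over all 5975 promoters tested, with at least a 2-fold difference. All 54 members passed the filter on low values. The fit treats the lone free MNase library as varying like the TF replicates, so that side has no replicate check. The median promoter differed between strains on this scale, by 0.18 on the log2 scale for Abf1 against free MNase, -0.92 for Rap1 and -0.44 for Reb1, and the differences below are to be read against these values. As a check of the labels, 92.8% of the 138 promoters of cytosolic ribosomal protein genes were called higher in Rap1 than in free MNase, and among all promoters that Reb1 cut most 48.8% held TTACCCG, against 2.36% and 3.34% for Abf1 and Rap1.

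At 30 s the mitochondrial ribosomal protein promoters included a group cut most by Abf1, a group cut most by Reb1 and a group called higher in no TF. Cleavage was higher than in free MNase in 21 of the 54 members with Abf1, where 34.9% of all promoters were called higher, in 13 with Reb1, against 25.3% of all, and in 5 with Rap1, against 16.5%. As shares of the members these were 38.9%, 24.1% and 9.26%, near the shares of all promoters for Abf1 and Reb1. Members called lower than in free MNase numbered 8 with Abf1, 15 with Reb1 and 34 with Rap1, against 22.1%, 33.6% and 47.7% of all promoters. The libraries were also rescaled by the median, over promoters, of their ratio to the geometric mean of the libraries, called centring below. The median promoter then still differed from free MNase, by 0.008 on the log2 scale for Abf1, -0.15 for Rap1 and -0.19 for Reb1. Centring changed the splits above to 21 higher and 12 lower for Abf1 (32.5% and 25.7% of all promoters). It gave 13 and 9 for Reb1 (28.2% and 25.1%), and 9 and 14 for Rap1 (24.9% and 26.3%). The counts lower than in free MNase thus depended on the processing for every TF, and they also ran from 2 to 16 for Abf1 and from 3 to 24 for Reb1 over the other alternatives. Between TFs, 33 members were called higher in Abf1 than in Rap1 (47.4% of all promoters) and 4 lower (10.5%), or 22 and 8 after centring (24.7% and 22.3%). Against Reb1, 22 were called higher in Abf1 (32.7%) and 18 lower (18.2%), or 20 and 20 after centring (25.1% and 23.2%). For Rap1 against Reb1, 5 were higher (14.7%) and 19 lower (33.1%), or 9 and 17 after centring (22.7% and 23.3%).

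A member is said to be led by a TF when its level was called higher there than in free MNase and than in both other TFs. Abf1 led 17 members, where it led 19.1% of all promoters, Reb1 led 12, where it led 14%, and Rap1 led 2, where it led 7.51%. Only RSM7 and RSM10 were called higher in more than 1 TF and led by none, against 11.9% of all promoters that were called higher somewhere and led by none. The remaining 21 members, 38.9% of the 54 against 47.5% of all promoters, were called higher in no TF. Since the groups were set by these same levels, the values at their edge are a description. The folds over free MNase and adjusted p given below for each group follow from the same choice and are no separate support. The highest TF mean of the 21 was 67.2, at MRPL6, and the lowest of the other 33 was 100.2, at MRPS16.

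**Figure D1:**
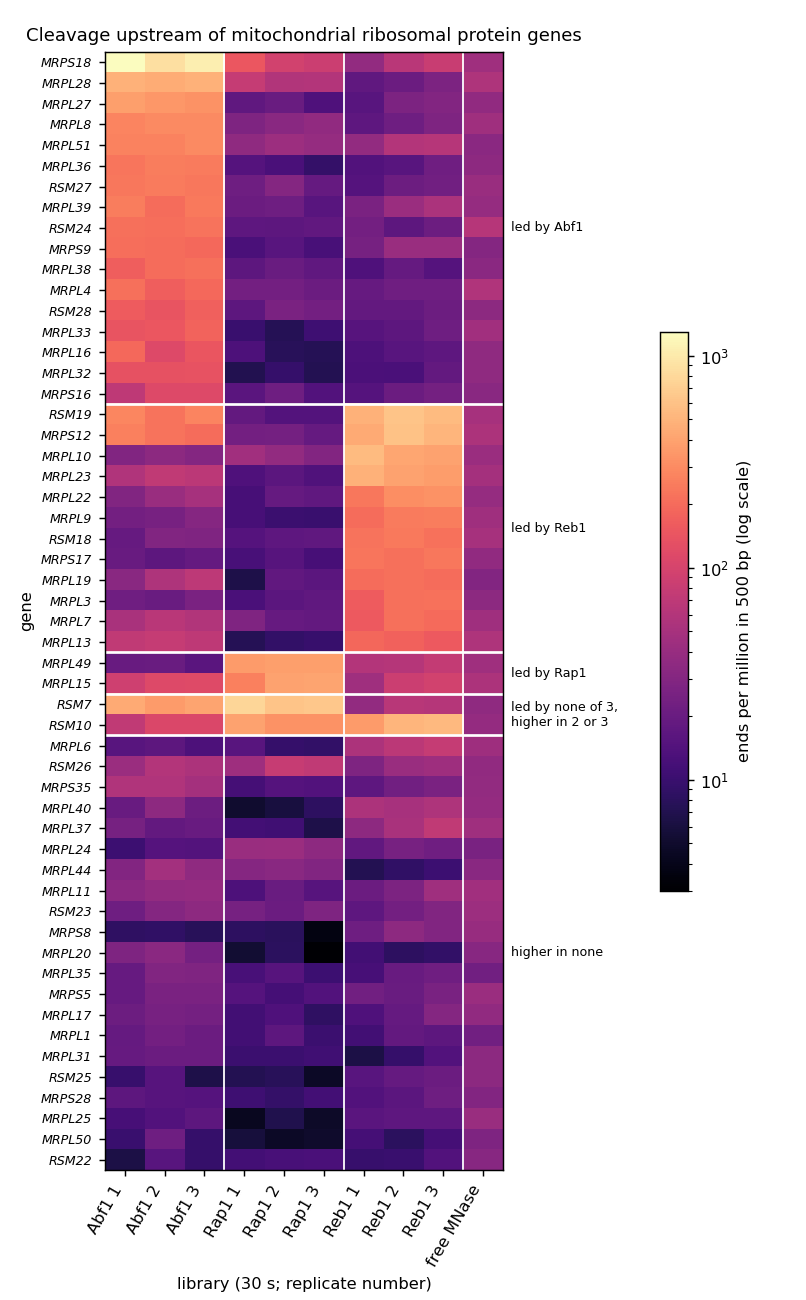
Level (ends per 1000000 in the 500 bp upstream of the start codon, log colour scale) of each of the 54 genes, in rows, in the 9 TF libraries and the free MNase library at 30 s, in columns with the replicate number. Genes are grouped by the TF that led them, 17 for Abf1, 12 for Reb1 and 2 for Rap1, with 2 led by none and 21 higher in none at the bottom, and the free MNase column stays between 22.7 and 63.3.

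Abf1 led 11 large-subunit and 6 small-subunit members, with mean levels from 100.2 to 1081 and a median of 214. The same 17 had levels of 30.5 to 63.3 in free MNase, 7.98 to 109.8 in Rap1 and 14.6 to 62.2 in Reb1. Fold over free MNase ran from 3.07 to 23.7 with a median of 5.82, and the largest adjusted p among the 17 was 0.000294 by limma.

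MRPS18 encodes a small-subunit protein related to one of the bacterial ribosome's platform. Its levels in Abf1 replicates 1 to 3 were 1297, 876 and 1070, against 149, 95.2 and 85.6 in Rap1, 37.6, 67.0 and 82.2 in Reb1 and 45.6 in free MNase. Every Abf1 library thus stood far above every other library. The difference from free MNase was 4.52 ± 0.38 (SE) on the log2 scale (limma adjusted p = 2.01e-10). It was the highest member in Abf1, and its Rap1 level was also called higher than free MNase, by 1.21 ± 0.38 (adjusted p = 0.00594), a call that was lost without Rap1 replicate 1 (0.97) and with the code in the library titles as a term (0.62).

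MRPL28 and MRPL27 encode large-subunit proteins without a bacterial counterpart. MRPL28 had levels of 481, 456 and 482 in the Abf1 replicates, 58.5 to 78.0 in Rap1, 17.6 to 27.2 in Reb1 and 55.8 in free MNase, a difference from free MNase of 3.06 ± 0.32 (adjusted p = 5.44e-09). MRPL27 had 383, 349 and 322 in Abf1 and no more than 29.9 in any Rap1 or Reb1 library, with 36.8 in free MNase. In neither promoter did the Abf1 range meet that of another strain.

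Further large-subunit members led by Abf1 lay between 230 and 288 on average. MRPL8 had 288 ± 11.0 (SD, n = 3), MRPL51 had 277 ± 14.9, MRPL36 had 241 ± 13.3 and MRPL39 had 230 ± 26.7, against 33.3 to 45.4 in free MNase. RSM27, of the small subunit, had 238 ± 5.54. The other 9 members led by Abf1 were RSM24, MRPS9, MRPL38, MRPL4, RSM28, MRPL33, MRPL16, MRPL32 and MRPS16, with means of 100.2 to 214. They lie outside the 10 highest and are listed for completeness. MRPS16 was the weakest, at 100 ± 24.8, and it alone of the 17 was no longer led by Abf1 when the code in the library titles was a term of the fit.

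Reb1 led 8 large-subunit and 4 small-subunit members, with mean levels from 174 to 550 and a median of 228. The same promoters had 29.7 to 56.0 in free MNase, and their fold over free MNase ran from 3.11 to 11.1 with a median of 6.53 (largest adjusted p 4.33e-05 by limma). Rap1 levels there were 8.75 to 37.8.

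RSM19 and MRPS12 are neighbours on chromosome XIV, and MRPS12 begins 229 bp after the end of RSM19 in the same direction. RSM19 encodes a protein of the small-subunit head and MRPS12 one that lies by the decoding centre in bacteria. RSM19 had levels of 489, 619 and 543 in the Reb1 replicates, 284, 221 and 276 in Abf1, 14.4 to 18.3 in Rap1 and 49.8 in free MNase. MRPS12 had 447, 597 and 514 in Reb1, 261, 220 and 203 in Abf1, 18.9 to 24.1 in Rap1 and 54.6 in free MNase. At both genes Reb1 and Abf1 stood above free MNase, and every Reb1 library stood above every Abf1 library. Reb1 exceeded Abf1 by 1.08 ± 0.22 at RSM19 (adjusted p = 8.41e-05) and by 1.18 ± 0.22 at MRPS12 (adjusted p = 2.76e-05), on the log2 scale. Both fell under the 2-fold minimum when identical fragments were counted once, at 0.72 and 0.80, and RSM19 also did without Abf1 replicate 2 (0.97), without Reb1 replicate 2 (0.99) and with the title code as a term (0.99).

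MRPL10 was called higher in Reb1 and in no other TF. Its levels were 544, 425 and 402 in the Reb1 replicates, 28.9 to 34.3 in Abf1, 29.8 to 46.2 in Rap1 and 42.6 in free MNase, a difference from free MNase of 3.38 ± 0.32 (adjusted p = 1.02e-09). MRPL23 had 487, 405 and 372 in Reb1 against 57.4 to 73.2 in Abf1 and 48.6 in free MNase. Both encode large-subunit proteins with bacterial counterparts.

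The next members by Reb1 level were MRPL22, whose bacterial counterpart lines the exit tunnel for the nascent chain, with 290 ± 49.6 (SD, n = 3), MRPL9 with 231 ± 26.8, RSM18 with 225 ± 11.9, MRPS17 with 224 ± 9.85 and MRPL19 with 206 ± 3.74. In Abf1 these 5 had means of 18.5 to 53.0, and in free MNase 29.7 to 50.4. MRPL3, MRPL7 and MRPL13, named outside the 10 highest, had Reb1 means of 174 to 195. MRPL7, where the 51 bp with most Reb1 ends were centred 419 bp before the start codon and the neighbour is divergent, was no longer led by Reb1 with a window of 250 bp, and MRPL13 no longer was when identical fragments were counted once.

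Rap1 led only MRPL49 and MRPL15. MRPL49, a large-subunit gene, had levels of 365, 382 and 379 in Rap1, at most 20.3 in Abf1, 60.1 to 76.1 in Reb1 and 45.6 in free MNase. The difference from free MNase was 3.01 ± 0.30 (adjusted p = 3.41e-09), and the 3 Rap1 libraries lay apart from all others. MRPL15 had 262, 404 and 409 in Rap1, 91.2 to 117 in Abf1, 45.5 to 95.1 in Reb1 and 54.6 in free MNase. The 51 bp with most Rap1 ends were centred 335 bp before the start codon, and with a window of 250 bp Rap1 exceeded Abf1 by 0.75 on the log2 scale, below the 2-fold minimum.

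RSM7 and RSM10, which encode proteins of the small-subunit head, were cut by more than 1 TF. RSM7 had the highest Rap1 level of all members, with 784, 618 and 653 in Rap1, 440, 368 and 407 in Abf1, 37.7 to 64.5 in Reb1 and 35.5 in free MNase. Rap1 exceeded Abf1 there by 0.75 ± 0.23 on the log2 scale (adjusted p = 0.00451), a difference under 2-fold. The 2 TFs cut at different places. The 51 bp with most Rap1 ends were centred 465 bp before the start codon and those with most Abf1 ends 166 bp before it. RSM10 had 369, 507 and 533 in Reb1, 404, 328 and 328 in Rap1, 72.6 to 110 in Abf1 and 38.8 in free MNase. The difference between Rap1 and Reb1 there, -0.40 ± 0.23 (SE) on the log2 scale, was not called (adjusted p = 0.126). The Reb1 and Rap1 positions of most cleavage lay 124 and 166 bp before the start codon. It was the only member called higher in all 3 TFs, where 5.42% of all promoters were, and 5 of the 54 were called higher in 2 or 3 TFs (18.7% of all), the others being RSM7, RSM19, MRPS12 and MRPS18.

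Members higher in no TF had TF means of 5.20 to 67.2 and free MNase levels of 22.7 to 46.0. RSM22, MRPL25 and MRPL50 were the lowest by their highest TF mean. RSM22, which encodes a methyltransferase-like protein tied to assembly of the small subunit, had 10.5 ± 4.69 in Abf1, 12.1 ± 0.63 in Rap1 and 11.2 ± 2.53 in Reb1 (SD, n = 3), against 31.5 in free MNase. MRPL25 had 14.4 ± 2.37, 5.35 ± 1.45 and 16.8 ± 0.74, against 41.2, and MRPL50 had 13.9 ± 7.02, 5.20 ± 0.63 and 10.6 ± 2.01, against 27.9. RSM26 and MRPL24 stood among the 10 highest in Rap1 with means of only 66.3 and 39.7, so the Rap1 ranking reached members that were not called.

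Large- and small-subunit genes were described by their counts only. Abf1 was called higher in 11 of 34 large-subunit and 10 of 20 small-subunit members, Reb1 in 8 and 5, Rap1 in 2 and 3. At least 1 TF was called higher in 22 of the 31 members with a divergent neighbour and in 11 of the 23 in tandem, that is 71.0% and 47.8%, against 57.8% and 46.8% of all promoters so arranged. Another list held 22 genes for mitochondrial ribosomal proteins with other kinds of symbol. Abf1 was called higher in 13 of them (59.1%), Reb1 in 8 (36.4%) and Rap1 in 4 (18.2%). In 4 (18.2%) no TF was called higher. Over the 54 members these shares were 38.9%, 24.1%, 9.26% and 38.9%, and over all promoters 34.9%, 25.3%, 16.5% and 47.5%. Among 25 mitochondrial translation factors and aminoacyl-tRNA synthetases the counts were 7, 3 and 2 (28%, 12% and 8%), with 17 (68%) higher in none. The 138 cytosolic ribosomal protein promoters had a median Rap1 level of 766, against 15.7 for the 54 members and 20.1 for all promoters.

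Where libraries shared a code in their titles, the calls between TFs kept their direction. The same libraries had made these calls, so this agreement was largely set in advance and is no independent check. The code, which looks like a date but is not explained, differed between replicates of each TF. Within code 20141219, Abf1 replicate 1 exceeded Rap1 replicate 1 at least 2-fold in 29 of the 33 members called higher in Abf1, and within code 20150213 the other 2 replicates of each did so in all 33. Within code 20141219, all 18 members called lower in Abf1 than in Reb1 were at least 2-fold lower, and 21 of the 22 called higher were at least 2-fold higher. Reb1 replicate 1 and free MNase shared code 20141114, and all 13 members called higher in Reb1 were at least 2-fold higher there. Abf1 and Rap1 shared no code with free MNase at 30 s, so code and strain cannot be told apart in those comparisons.

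In members led by Abf1 the 51 bp with most Abf1 ends held 28.9% to 56.2% of the ends of the window (median 43.7%) and were centred 83 to 228 bp before the start codon (median 138). In members led by Reb1 they held 41.5% to 73.2% (median 59.8%) and were centred 82 to 419 bp before it (median 134.5). The sharpest was MRPS12, where 380 ± 63.3 (SD, n = 3) of a level of 519 fell in 51 bp centred 137 bp before the start codon, against 6.17 in free MNase. All promoters led by Abf1 had a median share of 40.4% and a median position of 206.5 bp, and those led by Reb1 had 53.2% and 190.0 bp. In members not led by the TF the median shares were 35.9% for Abf1 and 32.9% for Reb1.

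**Figure D2:**
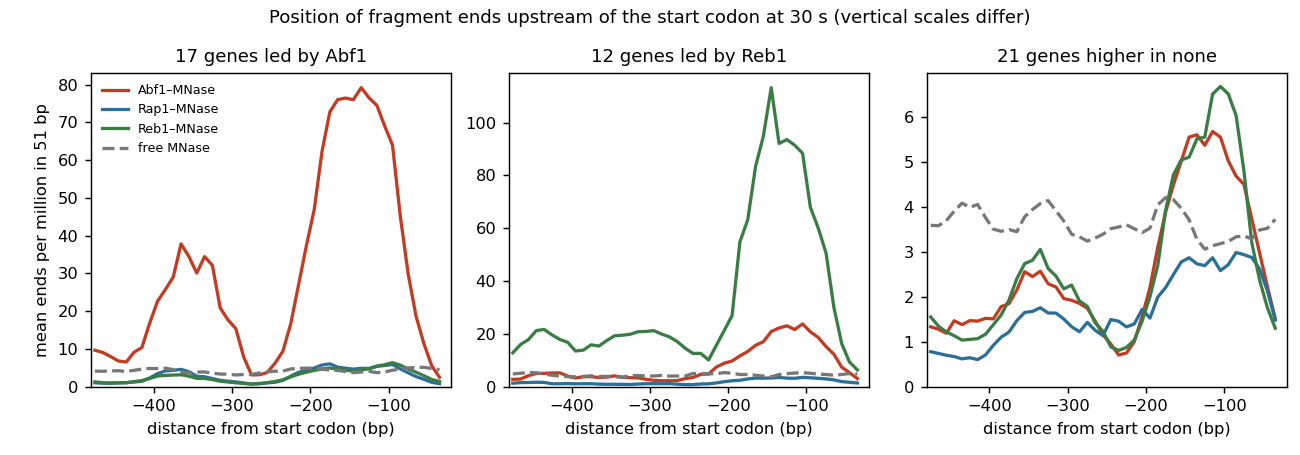
Mean number of ends per 1000000 in a running 51 bp (vertical axis, linear, with a different scale in each panel) against distance from the start codon, for the 17 genes led by Abf1, the 12 led by Reb1 and the 21 higher in none, at 30 s. Each line is the mean of the 3 replicates of a TF or the single free MNase library, and the leading TF is highest 135 bp before the start codon at genes led by Abf1 (79.2) and 145 bp before it at genes led by Reb1 (113), where Abf1 also rises, to 23.8. A smaller Abf1 rise farther upstream is seen in the first panel, and in the third no line passes 6.69. Genes were not weighted, and MRPS18 alone held 417 Abf1 ends in the 51 bp centred 137 bp before its start codon. Its part in the upstream rise was not tested.

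The motifs of Abf1 and Reb1 separated the members by their level. TTACCCG, the Reb1 consensus, stood on either strand in 8 of the 54 windows and in 10.1% of all windows. All 8 were called higher in Reb1, as were 558 of the 604 windows with it among all promoters. The remaining 5 of the 13 higher in Reb1 lacked it, and 36.9% of all promoters higher in Reb1 held it. Members with TTACCCG had a median Reb1 level of 326 and those without it 22, against 252 and 24.5 over all promoters. The shorter TTACCC, searched after the data were seen and contained in TTACCCG, stood in 11 of the 13 higher in Reb1 and 3 of the other 41. Over all promoters it stood in 59.5% of those higher in Reb1 and 11.0% of the others.

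For Abf1, TCA and ACG separated by 6 bases stood in 12 of the 21 members higher in Abf1 and 2 of the other 33, against 44.8% and 11.0% over all promoters. The fuller Abf1 consensus, which overlaps that pattern and was added after the data were seen, stood in 15 of the 21 and 1 of the 33, against 47.3% and 2.62% over all promoters. Members with it had a median Abf1 level of 234 and those without it 26.0, against 233 and 33.2 over all promoters. RSM28, MRPL38 and MRPL33 were led by Abf1 without a match to either pattern. The Rap1 pattern stood in MRPL15 and MRPL4 and in 4.25% of all windows. Of 14 members led by Abf1 with the fuller consensus, 13 had its centre within 50 bp of the position of most cleavage. The median distance was 31.0 bp. Of those led by Reb1 with TTACCC, 9 of 10 did (median 29.0 bp). The nearest match was used where a window held several, and these distances were not computed over all promoters.

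Reb1 ends lay mostly on 1 side of the motif in 8 of 10 promoters, and Abf1 ends were divided between the sides. Ends were counted in the 50 bp on each side of the TTACCC nearest the position of most cleavage, with the 5′ side that before the first T. In the 10 promoters led by Reb1 that had such a motif, the 5′ side held a median of 93.4%, 91.2% and 90.8% of these ends in Reb1 replicates 1 to 3, against 53.5% in free MNase. Over 572 promoters led by Reb1 the medians were 92.6%, 92.7% and 92.3%. At MRPS17 the 5′ side held 98.6%, 99.1% and 98.9%, and at MRPL10 97.7%, 98.2% and 96.8%. The printed MRPL10 and MRPS12 sequences read TTACCC forward, and nearly all ends lay to its left there. MRPL3, with 51.3%, 51.6% and 46.4%, held similar numbers on the 2 sides although it contains TTACCCG. MRPL7 gave 26.9%, 55.2% and 29.7%, but its nearest motif had only 29 to 52 ends within 50 bp.

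The N-terminal Reb1 library gave lower shares on the 5′ side than the short-linker library in all 10 promoters. At MRPL7 the 2 shares were close, 36.8% and 38.1%, and rested on few ends. They came from 7 and 12 ends on the 2 sides with the N-terminal fusion and 24 and 39 with the short linker. With the short linker the 5′ share kept a median of 92.5% over the 10 promoters, and with the N-terminal fusion it was 42.0%, with a range of 27.7% to 89.3%. RSM18 went from 87.5% to 90.3% in the replicates to 38.6%, MRPL22 from 88.8% to 94.6% to 32.8%, and MRPL23 from 94.2% to 95.2% to 43.7%. MRPS17 kept 89.3%. Over all 572 promoters the N-terminal median was 51.3%. The N-terminal and short-linker conditions are single libraries with no replicate, and the N-terminal strain also differs in expressing Reb1 from a plasmid with the chromosomal gene deleted.

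For Abf1, the ends within 50 bp of the fuller consensus were shared between the sides. In 14 promoters led by Abf1 the median share on the 5′ side was 52.7%, 50.5% and 50.2% in the 3 replicates, 53.3% with the short linker and 47.0% in free MNase. MRPL39, at 82.1%, 82.3% and 76.7%, was the highest in each of the 4 Abf1 libraries.

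**Figure D3:**
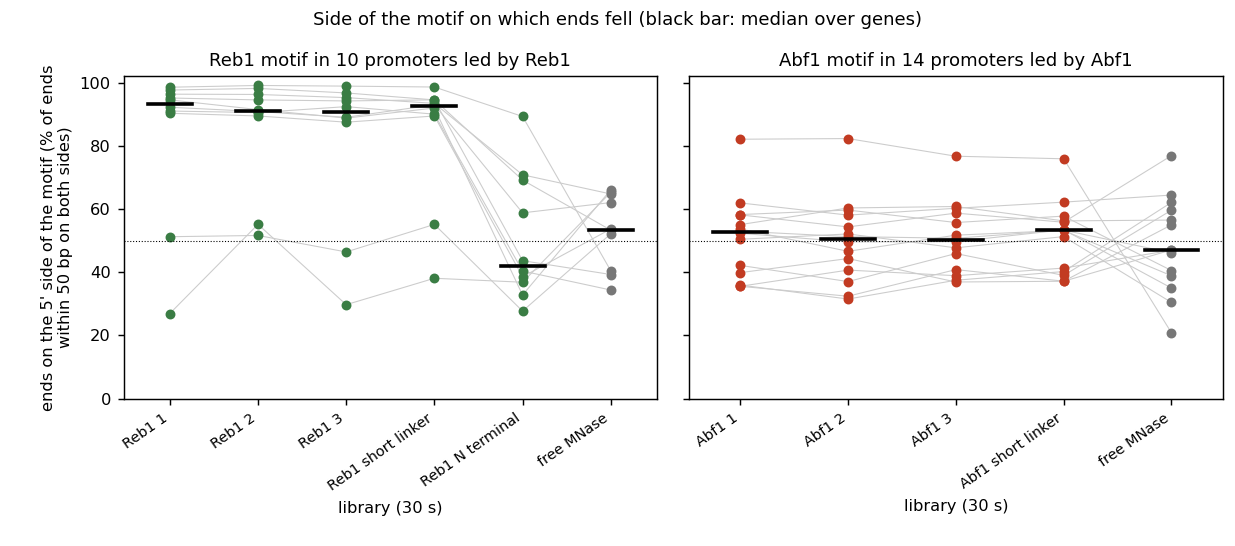
Percent of ends on the 5′ side of the motif, among ends within 50 bp on both sides, for each promoter (points joined by grey lines) in each library at 30 s, with the median as a black bar and 50% as a dotted line. The left panel shows TTACCC in 10 promoters led by Reb1, where the medians drop from 92.5% with the short linker to 42.0% with the N-terminal fusion, and the right panel shows the Abf1 consensus in 14 promoters led by Abf1, where medians stay between 47.0% and 53.3%.

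Total levels with the other constructs were set against the 3 replicates at 30 s, with 1 library for each construct. For N-terminal Reb1, the position of MNase and expression from a plasmid cannot be told apart. With the short linker at 30 s, the members led by Abf1 had 0.825 to 1.20 times the mean of the 3 replicates (median 1.04) and those led by Reb1 0.851 to 1.25 times (median 1.01). With N-terminal Reb1 the ratio was 0.749 to 1.95 (median 1.23), against a median of 1.13 over all promoters led by Reb1, and 8 of the 12 lay above all 3 replicates and 3 below, against 53.0% and 27.2% of all promoters led by Reb1. MRPL19 had 402 with the N-terminal fusion against 203 to 210 in the replicates, and RSM18 had 394 against 217 to 239. RSM19 and MRPS12 went the other way, with 412 and 433 against at least 489 and 447. MRPL6, chosen after its values were seen, was called higher in no TF but had 182 with N-terminal Reb1 at 30 s, against 55.1 to 78.7 in the replicates and 40.6 with the short linker. Its Reb1 ends in the densest 51 bp came to 45.3 ± 10.4 (SD, n = 3), against 3.58 in free MNase, and it was led by Reb1 with a window of 250 bp and outside gene bodies.

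Over the digestion the level of the leading TF at these promoters was high early, and its excess over free MNase then shrank. A level is a share of the ends of its library, so a fall does not show that fewer cuts were made. The amount of cleavage was not measured. In members led by Abf1 the median level was 209 at 10 s, 213 at 30 s, 184 at 1 m, 103 at 5 m and 75.1 at 20 m, while free MNase went from 37.0 at 10 s to 62.2 at 20 m. The highest of the 10 time points came at or before 1 m in 16 of the 17, against 87.1% of all promoters led by Abf1. Both sets were chosen for a high level at 30 s, and replicate 1 of that time is a point of the course, so an early maximum is in part set by the choice. MRPS18 had 1615 at 10 s, 1297 at 30 s, 952 at 1 m, 286 at 5 m and 118 at 20 m. At 20 m 14 of the 17 still exceeded free MNase, with a median ratio of 1.21, where the ratio at 30 s was 5.74.

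In members led by Reb1 the median rose from 166 at 10 s to 246 at 1 m and was 83.0 at 20 m, as was that of free MNase at that time. All 12 were highest at or before 1 m, against 75.9% of all promoters led by Reb1, and at 20 m 6 of the 12 exceeded free MNase. Both members led by Rap1 fell from 30 s to 20 m, MRPL49 from 365 to 71.2 and MRPL15 from 262 to 128, and MRPL15 was highest at 2.5 m, with 355. The members higher in no TF, which were low at 30 s by the way they were chosen, had median Abf1 levels of 13.4 at 10 s and 57.1 at 20 m, Rap1 levels of 6.84 and 47.4, and Reb1 levels of 14.0 and 45.5. The median of all promoters rose as well, from 27.2 to 71.2 in Abf1, from 12.3 to 75.0 in Rap1 and from 18.8 to 74.9 in Reb1. By 20 m the 54 members had medians of 69.3 in Abf1, 69.9 in Rap1 and 68.6 in Reb1, near 64.9 in free MNase. Each time point other than 30 s is 1 library. The share of distinct fragments also varied along the courses. In Reb1 it was 13.8% at 10 s and 29.4% at 1 m, against 43.2% in replicate 1 at 30 s, and in free MNase it was 26.2% at 10 s. For every TF the title codes change between 1 m and 2.5 m, so that code and digestion time cannot be told apart there.

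**Figure D4:**
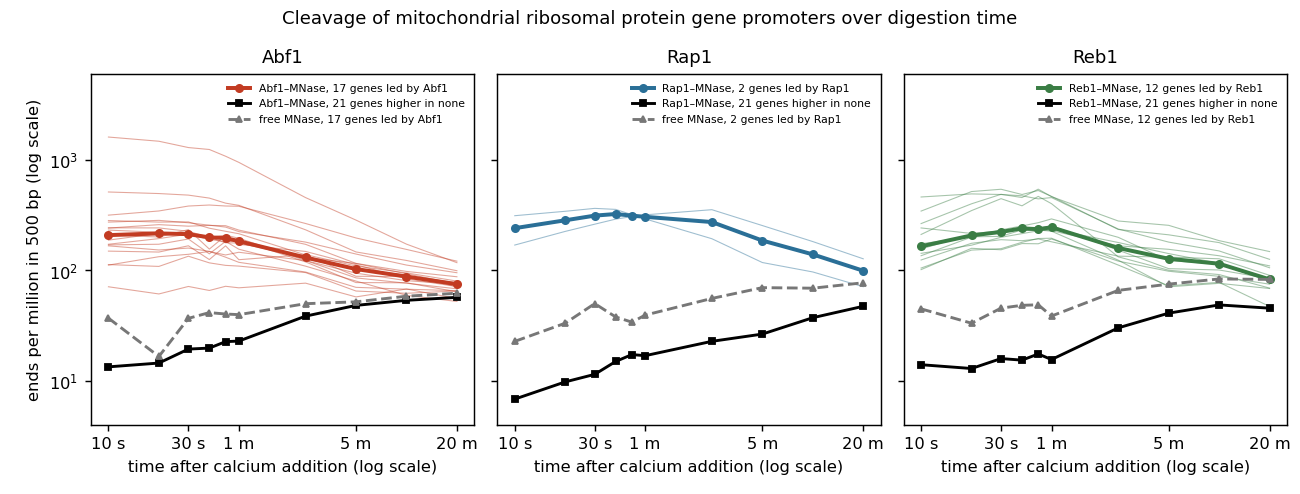
Level (ends per 1000000 in 500 bp, log axis) against time after calcium addition (log axis) for each TF, with replicate 1 at 30 s. Thin lines are the single genes led by the TF, the thick line with circles is their median, squares are the median of the 21 genes higher in none in the same libraries, and the dashed line with triangles is free MNase at the led genes. The lines converge towards 20 m, where the median at genes led by Abf1 is 75.1 and that of free MNase 62.2.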

How the data were processed

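The deposited files hold positions of mapped fragments (chromosome, start and end) per library, made by the authors from paired-end reads aligned to sacCer3 with Novoalign 2.08.03, with identical fragments kept and no normalization. Both ends of each fragment were counted in 500 bp upstream of each start codon (RefSeq R64, which has the same chromosome lengths) and given per 1000000 ends on nuclear chromosomes outside rDNA. Of the windows, 19 in rDNA and 2 cut by a chromosome end were left out.

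The 10 libraries at 30 s were fitted together with limma 3.58.1 (trend) in R 4.3.3 on log2(level + 1), over 5975 promoters with a mean of at least 10 ends. Fold changes on this scale understate the change of low windows. The script was tested on simulated data. Lists were counted, not tested as sets. Positions of most cleavage are maxima of 51 bp running sums.

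Same-numbered Abf1 and Rap1 replicates deviated together (r = 0.43, 0.16 and 0.23 across promoters) and share title codes. Abf1 replicate 2 with Rap1 replicate 3 gave 0.21, and Abf1 replicate 3 with Rap1 replicate 2 gave 0.16. Replicates 2 and 3 of both TFs share 1 title code, and within it the numbers did not mark pairs. The replicates of Reb1 did not pair with either TF. The fit without a block is the main one. Alternatives covered the pseudocount, filter, scaling, window, identical fragments, voom, the call rule, the title code, each replicate left out, other free MNase libraries, the replicate block and the groups in the fit. Genes named are the 10 highest per TF and the 3 lowest, unless said otherwise. The members, lists and named genes were chosen with earlier results of these data known. Levels rest on sequenced fragments without molecular identifiers, so replicate spread is given rather than counting intervals.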

Additional observations from a re-analysis of the deposited data

How the results depend on the processing

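Counts of members called were recomputed under each alternative, and 277 of 300 recomputed counts stayed within 1.5 times the reported one. Many of these counts could hardly move, so this total overstates how little the calls depend on the processing. Leaving out a replicate of a TF outside a comparison barely alters that comparison. Dropping the filter on low values could remove or add no member, since every member passed it. Members lower in Abf1 than in free MNase (8) became 5 with a pseudocount of 10, 4 with a window of 250 bp, 2 outside gene bodies, 5 with identical fragments counted once, 14 by adjusted p alone and 16 with the title code as a term. The same alternatives gave 7, 7, 7, 3, 23 and 24 members lower in Reb1 (15), and centring by the median of ratios gave 9. Members lower in Rap1 than in free MNase (34) became 14 with that centring and 13 with identical fragments counted once, and members higher became 9 with centring, as did those higher in Rap1 than in Reb1 (5), which also became 9 by adjusted p alone, with 30 lower in place of 19. Centring gave 8 members lower in Abf1 than in Rap1 in place of 4. Rap1 led 5 members with centring, 1 with a window of 250 bp and 1 when every call needed a 4-fold difference, a rule chosen after seeing the data. The cause of these changes was not tested. Under that 4-fold rule Abf1 led 12 and Reb1 led 8 members.

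With the replicate block, 33 members were higher and 4 lower in Abf1 than in Rap1, as without it, and the block changed no count for the other pairs of TFs. All 17 members led by Abf1 were still led by it under each alternative fitted with the 2-fold rule, with each replicate of each TF left out in turn, other than the title code as a term, where 16 were. Of the 12 led by Reb1, 9 were still led by it with identical fragments counted once and 11 with a window of 250 bp, with the title code as a term, without Abf1 replicate 2 or without Reb1 replicate 2. Members gained were RSM7 for Abf1 and MRPL6 for Reb1 with a window of 250 bp, MRPL20 and MRPS35 for Abf1 and MRPL6 for Reb1 outside gene bodies, MRPL40 for Reb1 with identical fragments counted once, and MRPL24, RSM26 and RSM7 for Rap1 with centring, RSM7 also with no fold minimum, a rule chosen after seeing the data. Of 104 called differences of the 26 named members none changed direction, and 30 lost the call under at least 1 alternative. Leaving out 1 replicate at a time gave 31 to 34 members higher in Abf1 than in Rap1. Against free MNase it gave 21 to 23 higher in Abf1, 5 higher in Rap1, 13 higher in Reb1 and 12 to 18 lower in Reb1. The 5 were not always the same members, since MRPS18 lost its Rap1 call without Rap1 replicate 1. The lone free MNase library and the single libraries outside 30 s limit what these comparisons can show.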

Other observations

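The Abf1 X-ChIP-seq library entered no comparison. Its label gives the genotype ABF1-3FLAG-MNase-kanMX6, but the strain list of the study also holds ABF1-3FLAG-kanMX4, an Abf1 strain without MNase, and which of them was used is not settled here. Its level was 35.2 to 67.4 in the 17 members led by Abf1 (median 45.3) and 32.4 to 85.8 in the other 37 (median 42.9). The median was 46.3 over all 1142 promoters led by Abf1 and 43.5 over all promoters. The study averaged X-ChIP-seq signal around its Abf1 ChEC-seq sites and random sites, and reported enrichment at the former. Ends summed over 500 bp are another measure, so these levels do not test that result.

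Without added calcium the 54 members had median levels of 45.3 in Abf1, 46.3 in Rap1, 61.0 in Reb1 and 44 in free MNase, against 46.1, 47.9, 63.4 and 41.9 over all promoters. MRPS18 had 66.9 in Abf1 without calcium, against 1615 after 10 s. RSM7 had 114 in Rap1 without calcium, the highest of the members there, against 611 after 10 s. Distinct fragments made up 78.8% of the Abf1 library without calcium. The share was only 16.5% in Rap1, 31.8% in Reb1 and 14.8% in free MNase, so levels of single genes there rest largely on repeated fragments.

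MRPL37 and MRPL40, chosen after their values were seen, had 118 and 99.1 with N-terminal Reb1 at 30 s, against 34.9 to 73.0 and 51.3 to 56.4 in the 3 Reb1 replicates and 31.3 and 37.4 with the short linker. At 5 m they had 104 and 73.3 with the N-terminal fusion and 45.0 and 33.6 with the short linker. These are single libraries.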
